A study of Mus musculus with 12 samples.

Results

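The metallothionein and zinc handling genes described here are 8 of the 47359 genes in the deposited table. They are the metallothioneins Mt1, Mt2 and Mt3, the zinc-sensing transcription factor gene Mtf1, the exporter gene Slc30a1, and the importer genes Slc39a6, Slc39a10 and Slc39a14. All 8 were chosen by name with earlier results of these libraries in view, so their values are given as a description and without p-values. Of the 8, 7 passed the filter on low counts and entered the fit over 21565 genes. The exception was Slc30a1.

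The cells were TH17 cells, helper T cells of the kind that makes IL-17, taken from the central nervous system of RAG2-/- mice into which they had been transferred. Such hosts lack lymphocytes with rearranged receptors but keep their other cells. Collection was at the peak of disease, which the series title names as experimental autoimmune encephalomyelitis. The donor genotypes were 2D2-WT (here WT) and 2D2-IL-17A/F-DKO (here DKO, without Il17a and Il17f), both carrying 2D2, a transgenic T cell receptor for a myelin protein. In each genotype, cells were sorted by the surface receptors CXCR6 or SLAMF6, with 1000 living cells per library. WT had 5 libraries of each subset and DKO had 1 of each, and no age of the animals was given. Nothing in the labels says that the 5 libraries of a group came from separate animals, so the spread between them may be technical.

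Facts of the whole series bear on each comparison below. Library totals ran from 6818658 to 11635037 counts. Il17a held 1622 to 4751 counts in the WT libraries and 0 and 3 in the DKO CXCR6+ and SLAMF6+ libraries. Trbv16, the V segment of the 2D2 receptor, made up 99.6 to 99.8% of Trbv counts in WT, but 9.96% and 6.51% in the DKO libraries, which goes against their 2D2 label. In the DKO SLAMF6+ library 11.9% of counts were haemoglobin. The neutrophil genes S100a8 and S100a9 stood at 497 and 425 CPM in the DKO CXCR6+ library, at 26.2 and 45.5 CPM in the DKO SLAMF6+ library and at 0 in every WT library. CPM are counts over the library's total after TMM adjustment, times 1000000. In WT, the mitochondrial share of counts was 12.9 to 17.6% in CXCR6+ and 2.2 to 5.24% in SLAMF6+, so RNA composition moved with the sort, and its part in the results was not tested. All 9 T cell markers averaged over 1 CPM in every group. With 1 DKO library per subset, no DKO value can be given without the library that stands apart, and genotype, receptor repertoire and library cannot be told apart. In such bulk samples, fewer cells that make a transcript and less of it per cell cannot be told apart either.

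Metallothioneins are small cysteine-rich proteins that bind zinc and copper. When free zinc rises, MTF1, a zinc finger transcription factor, binds metal response elements in front of their genes and raises their transcription. Glucocorticoids and hypoxia are further known inducers. Proteins of the ZIP family (genes Slc39a) bring zinc into the cytosol, and those of the ZnT family (genes Slc30a) take it out, to the outside or into organelles. In T cells, zinc is known to enter after receptor stimulation and to affect signalling.

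Mt1, Mt2 and Mt3 lie on 1 strand of a short stretch of chromosome 8 of the mouse build GRCm38. Their annotated spans, from GENCODE M21, are chr8:94179082-94180327 for Mt1, chr8:94172664-94173568 for Mt2 and chr8:94152607-94154146 for Mt3, all on the plus strand. The start of Mt2 lies 6.42 kb and that of Mt3 26.5 kb before the start of Mt1. Of the 8 genes, 6 had promoter entries in RefSeq's table for GRCm38.p6. The 3 metallothionein genes moved together, while Slc30a1, a textbook MTF1 target, held 0 to 9 counts per library, so its direction is uncertain. For these genes, the 250 bases before the annotated start are shown. They are written 5′ to 3′ on the gene's strand, with each match to the metal response element core, TGCACNC or TGCGCNC on either strand, in capitals. The windows are chr8:94178839-94179088 for Mt1, chr8:94172368-94172617 for Mt2, chr8:94152357-94152606 for Mt3 and chr1:191906531-191906780 for Slc30a1, all on the plus strand.
Mt1: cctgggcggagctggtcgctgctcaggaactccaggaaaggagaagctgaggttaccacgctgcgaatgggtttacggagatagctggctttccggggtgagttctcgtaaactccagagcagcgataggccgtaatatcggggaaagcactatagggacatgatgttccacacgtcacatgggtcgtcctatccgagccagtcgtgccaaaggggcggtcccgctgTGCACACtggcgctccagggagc
Mt2: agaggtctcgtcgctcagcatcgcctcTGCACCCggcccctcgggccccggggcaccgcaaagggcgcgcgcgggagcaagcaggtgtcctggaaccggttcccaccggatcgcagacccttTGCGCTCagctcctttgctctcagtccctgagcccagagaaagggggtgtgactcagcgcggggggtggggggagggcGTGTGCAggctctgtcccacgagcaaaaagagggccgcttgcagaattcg
Mt3: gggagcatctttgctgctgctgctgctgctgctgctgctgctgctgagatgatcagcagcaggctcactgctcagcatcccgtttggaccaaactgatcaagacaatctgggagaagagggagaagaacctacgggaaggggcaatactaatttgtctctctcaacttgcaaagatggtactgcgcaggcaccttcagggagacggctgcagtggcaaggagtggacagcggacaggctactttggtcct
Slc30a1: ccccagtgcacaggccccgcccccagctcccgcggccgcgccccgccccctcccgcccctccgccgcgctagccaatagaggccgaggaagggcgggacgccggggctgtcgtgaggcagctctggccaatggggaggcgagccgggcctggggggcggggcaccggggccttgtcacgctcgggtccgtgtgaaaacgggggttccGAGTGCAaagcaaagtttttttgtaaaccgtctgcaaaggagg

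The Mt2 window held 3 matches, the Mt1 and Slc30a1 windows 1 each, and the Mt3 window 0. Among all 32851 RefSeq promoter windows of this length, 21.4% held at least 1 match and 1.26% held at least 3. The Mtf1 window and both Slc39a10 windows held 0. Over the whole entries of 300 bases, which include 50 bases after the start, there were 3 matches for Mt1, 4 for Mt2, 1 for Mt3 and 2 for Slc30a1, where 1.97% of all entries held at least 3. Annotated Mt1 transcripts start at 3 places, at 94179082, 94179211 and 94179241, and the stretch of 129 bases from the first of these to the next held 4 matches. The window printed for Mt1 ends a few bases past the first of these and does not reach the later starts. A match is a run of letters, not a measured binding site, and its absence says nothing of MTF1.

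Mt1 was the most abundant of the 8 genes in WT cells and far lower in both DKO libraries. In WT CXCR6+ replicates 1 to 5, Mt1 stood at 285, 376, 237, 371 and 416 CPM. In WT SLAMF6+ replicates 1 to 5 it stood at 1009, 924, 956, 973 and 1195 CPM. Every WT SLAMF6+ library lay above every WT CXCR6+ library. The means were 337 ± 73.7 and 1012 ± 107 CPM (SD, n = 5 each), a 3.002-fold difference, and the fitted log2 difference of CXCR6+ minus SLAMF6+ was -1.59 (SE 0.148). Mt1 stood at 7.15 CPM (62 counts) in the DKO CXCR6+ library and at 7.95 CPM (55 counts) in the DKO SLAMF6+ library. Both values lay far below all 10 WT libraries, 47.1-fold and 127-fold under the WT means of their subsets. The fitted log2 differences of DKO minus WT were -5.56 (SE 0.386) in CXCR6+ and -6.99 (SE 0.416) in SLAMF6+.

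Mt2, whose protein acts alongside that of Mt1 and is made with it in most tissues, had the same order of groups. Its level in WT CXCR6+ replicates 1 to 5 was 147, 182, 103, 201 and 247 CPM. In WT SLAMF6+ replicates 1 to 5 it was 373, 331, 319, 330 and 345 CPM. The WT groups did not overlap, with means of 176 ± 54.3 and 340 ± 20.9 CPM (SD, n = 5 each) and a fitted log2 difference of -0.95 (SE 0.189). Both DKO libraries held 0 counts of Mt2. Against a floor of 3 counts per DKO library, Mt2 was at least 508-fold lower than WT in CXCR6+ and at least 784-fold lower in SLAMF6+. Floors and counting intervals here cover counting error only. Over a length of 749 bases Mt2 overlaps Gm45774, an antisense gene that had 0 to 15 counts per library. The libraries do not mark strand, so counts of that pair cannot be told apart.

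Mt3, best known from the brain, where neurons and astrocytes make it, was detected at a low level in all WT libraries. WT CXCR6+ replicates 1 to 5 held 2.65, 6.68, 5.24, 4.97 and 1.45 CPM of Mt3, and WT SLAMF6+ replicates 1 to 5 held 7.64, 8.69, 8.11, 9.32 and 6.52 CPM. These ranges overlapped in a single pair, WT CXCR6+ replicate 2 and WT SLAMF6+ replicate 5. The means were 4.198 ± 2.11 and 8.05 ± 1.07 CPM, and the log2 difference of -0.94 (SE 0.360) was not past the threshold. Without WT CXCR6+ replicate 2 it was -1.17 and past it. In DKO CXCR6+ the count of Mt3 was 0, at least 12.1-fold lower than WT, and in DKO SLAMF6+ it was 3 (0.433 CPM). The latter is a DKO to WT ratio of 0.0541 with a 95% counting interval of 0.0111 to 0.159.

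**Figure D1:**
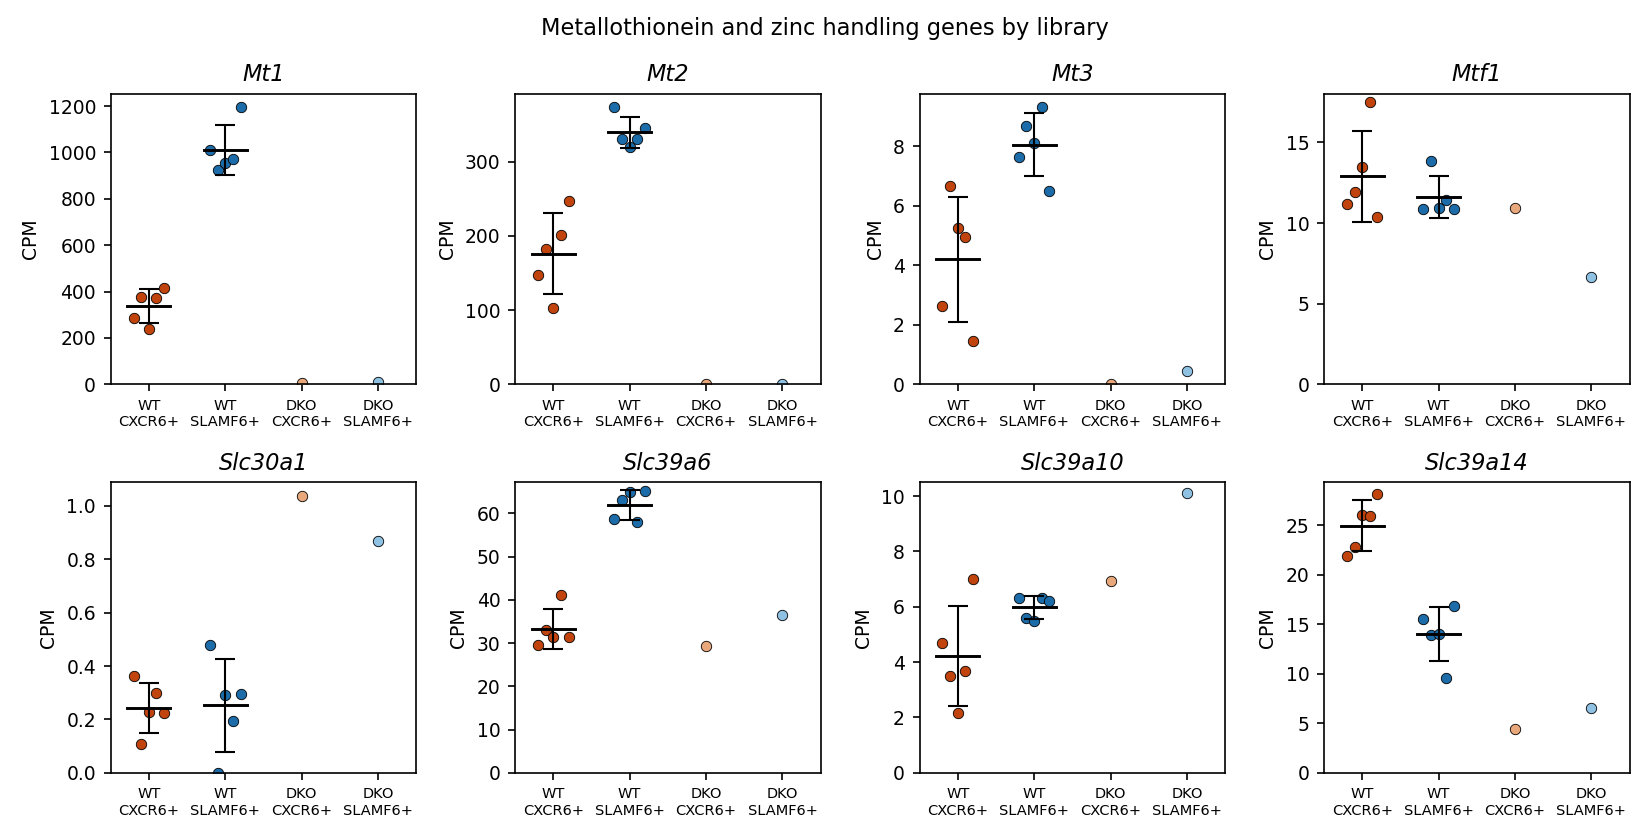
CPM of the 8 genes (y axis, linear, from 0, a separate scale per gene) in each library (points), by group, with the mean and SD over the 5 libraries of each WT group (line and bars) and no error for the single DKO libraries. Mt1, Mt2 and Mt3 are lowest in both DKO libraries, where Mt2 is at 0, while the Slc30a1 and Slc39a10 values of the DKO libraries are at or above most WT values.

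Mt1 and Mt2 did not move in fixed proportion. The number of Mt1 counts per Mt2 count was 1.94, 2.06, 2.29, 1.85 and 1.69 in WT CXCR6+ replicates 1 to 5, and 2.71, 2.79, 3.0, 2.95 and 3.46 in WT SLAMF6+ replicates 1 to 5. The groups did not overlap (1.97 ± 0.226 against 2.98 ± 0.292, SD, n = 5 each), and Mt1 thus differed more between the subsets than Mt2. The DKO CXCR6+ library had 62 Mt1 counts and no Mt2 count, a ratio of at least 20.7 against the floor of 3 counts. In DKO SLAMF6+ the ratio was at least 18.3. Both limits lie above the ratio of every WT library. Of the 38-base stretches of Mt1, the read length, 0% also occur in another annotated gene, and of those of Mt2 53.4% do, all in the antisense Gm45774. The 3 metallothioneins together held 0.0602 ± 0.0145% of all WT CXCR6+ counts and 0.121 ± 0.0100% of all WT SLAMF6+ counts (n = 5 each), against 0.000725% and 0.0007% in the DKO libraries.

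**Figure D2:**
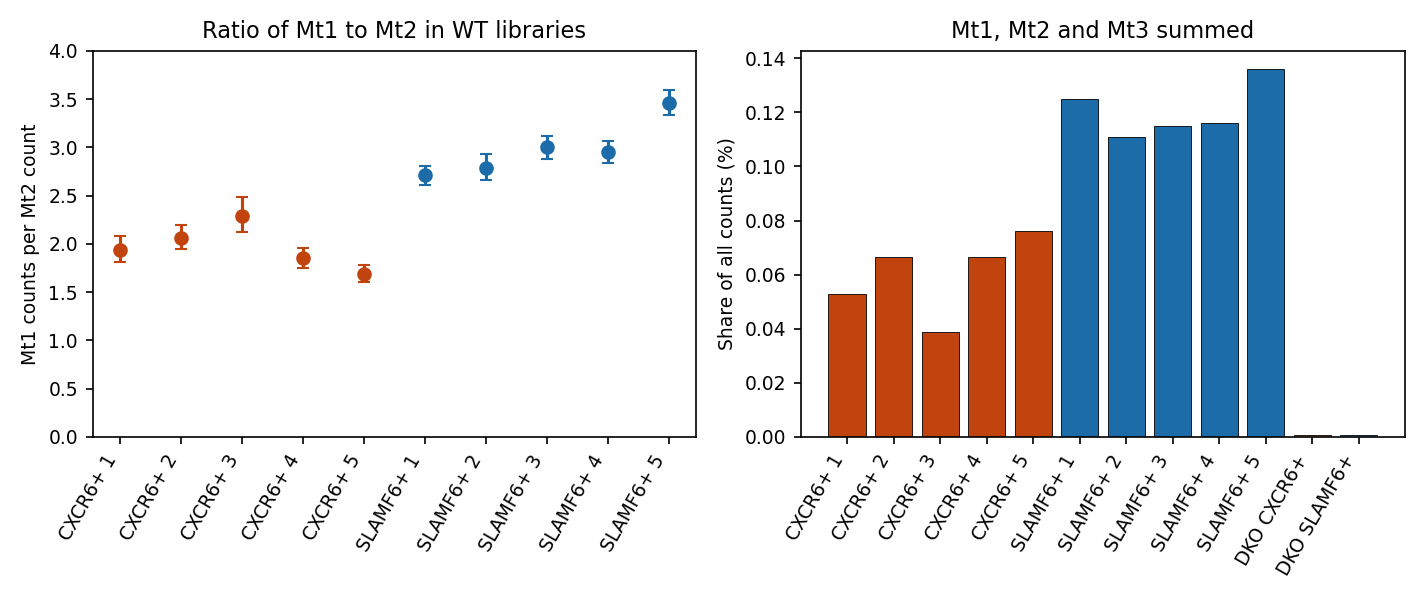
Left, Mt1 counts per Mt2 count in the 10 WT libraries (points) with 95% exact counting intervals (bars); right, the summed share of Mt1, Mt2 and Mt3 in all counts (%) in the 12 libraries. The ratios are 1.69 to 2.29 in CXCR6+ and 2.71 to 3.46 in SLAMF6+, and the shares of the DKO libraries are too small to see on this scale.

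Metallothioneins are also made by cells of the central nervous system, and transcripts of those cells were looked for with marker lists. The summed level of 8 astrocyte markers was 85.0 to 112 CPM in WT CXCR6+, 198 to 227 CPM in WT SLAMF6+, and 4.38 and 3.32 CPM in the DKO libraries, the same order as that of the metallothioneins. Nearly all of it was Aldoc, a glycolytic enzyme gene (45.3 to 142 CPM over the WT libraries), and Gja1, a gap junction gene (32.3 to 79.4 CPM). The astrocyte-defining genes Gfap, Aqp4 and Slc1a3 were at or near 0 in all 12 libraries, with 0.888 CPM as the highest value of the 3. Slc1a2, an astrocyte glutamate transporter gene, stood at 1.99 to 4.56 CPM in WT CXCR6+, 2.64 to 5.33 CPM in WT SLAMF6+ and 0 in both DKO libraries, so it too was lower in DKO. The summed fibroblast list of 6 genes, nearly all of it Lum and Dcn, likewise stood at 36.4 to 128 CPM in WT CXCR6+ and 77.9 to 114 CPM in WT SLAMF6+, but at 0.577 and 1.88 CPM in the DKO libraries. Col1a1, Col1a2 and Col3a1, which define fibroblasts, did not pass 3.08 CPM in any library. The summed neuron list of 8 genes was 1.78 to 6.79 CPM over all libraries, and Nefl was at 0 throughout. The oligodendrocyte list of 8 genes, nearly all of it Cnp and Mbp, was higher in DKO. Its sum was 65.3 to 75.1 CPM in WT CXCR6+ and 123 to 149 CPM in WT SLAMF6+. In the DKO CXCR6+ and SLAMF6+ libraries it was 253 and 239 CPM. The endothelial list of 6 genes, mostly Pecam1, summed to 7.07 to 12.8, 11.2 to 18.1, 20.8 and 37.7 CPM in the same group order. The summed list of 13 microglia and myeloid genes was 9.35 to 19.8 CPM in WT CXCR6+, 24.6 to 34.4 CPM in WT SLAMF6+, and 943 and 135 CPM in the DKO libraries, where S100a8 and S100a9 made up most of the larger sum. By edgeR's test 3 of these 13 genes were higher and 3 lower in DKO CXCR6+, and 9 were higher and 2 lower in DKO SLAMF6+. The microglial gene Tmem119 was, like Mt1, higher in WT SLAMF6+ (13.9 to 21.9 CPM) than in WT CXCR6+ (0.228 to 4.23 CPM). Its DKO values, 0.461 and 0.433 CPM, lay below the WT SLAMF6+ range but, unlike those of Mt1, inside the WT CXCR6+ range. P2ry12, another microglial gene, was at 0.395 to 1.69 CPM over the WT libraries and at 0 in both DKO libraries. The sum of 6 B cell markers was 24.0 to 36.1 CPM over the WT libraries and 5.65 and 1.16 CPM in the DKO libraries. The part of these other transcripts in the metallothionein values was not tested beyond these levels.

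Mtf1, on chromosome 4 (chr4:124802104-124849800), encodes the factor that induces metallothionein genes, and its own level moved far less than theirs. It stood at 11.2, 11.9, 13.5, 17.5 and 10.4 CPM in WT CXCR6+ replicates 1 to 5 and at 10.9, 13.9, 10.9, 11.5 and 10.9 CPM in WT SLAMF6+ replicates 1 to 5. The WT subsets overlapped, with a log2 difference of 0.15 (SE 0.161) whose sign was not stable over the alternatives (-0.02 to 0.40). Only with the filter at 10 CPM in 5 libraries was it past the threshold (0.40). The DKO CXCR6+ value of 10.96 CPM lay inside the WT range. In DKO SLAMF6+, Mtf1 stood at 6.65 CPM, below all WT libraries, with a log2 difference from WT of -0.80 (SE 0.300) that was not past the threshold. It was past it without WT CXCR6+ replicate 4 (-0.80), with only the groups compared (-0.78) and with a term for libraries in which the mitochondrial tRNA gene mt-Ts1 was at 0 counts (-1.03). Mtf1 shares 721 bases with 1110065P20Rik on the other strand. That gene had 15 to 62 counts per WT CXCR6+ library, 23 to 86 per WT SLAMF6+ library, and 17 and 11 in the DKO libraries. The counts of Mtf1 are uncertain to that extent.

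Slc30a1 (chr1:191906767-191913247) encodes ZnT1, the zinc exporter of the plasma membrane and, like the metallothionein genes, a classic MTF1 target. It was at the edge of detection, with 1 to 3 counts per WT CXCR6+ library and 0 to 5 per WT SLAMF6+ library. The DKO CXCR6+ library held 9 counts (1.04 CPM) and the DKO SLAMF6+ library 6 (0.867 CPM), more than any WT library. The DKO to WT ratios were 4.27 (95% counting interval 1.56 to 11.3) in CXCR6+ and 3.22 (1.00 to 9.08) in SLAMF6+, the opposite direction to that of Mt1, Mt2 and Mt3. Its WT levels were 0.244 ± 0.0942 and 0.252 ± 0.174 CPM (n = 5 each). With 11 and 13 counts in all, a difference between the WT subsets was not detectable at this depth. Slc30a1 shares 761 bases with 1700034H15Rik, an antisense gene that had 0 to 15 counts per WT CXCR6+ library, 0 in WT SLAMF6+, and 4 and 2 in the DKO libraries. Without strand, reads of that pair cannot be told apart, so the counts of Slc30a1 and the direction they give are uncertain.

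Slc39a6 (chr18:24579881-24603817, minus strand) encodes the importer ZIP6. Its levels were 29.5, 33.1, 31.5, 41.1 and 31.3 CPM in WT CXCR6+ replicates 1 to 5, and 58.6, 63.1, 65.0, 57.9 and 65.2 CPM in WT SLAMF6+ replicates 1 to 5. All WT SLAMF6+ libraries lay above all WT CXCR6+ libraries (33.3 ± 4.57 against 61.9 ± 3.47 CPM, log2 -0.89, SE 0.0937). The DKO CXCR6+ library, at 29.3 CPM, was just under the lowest WT library of its subset, with a log2 difference of -0.18 (SE 0.165) that was not past the threshold. The DKO SLAMF6+ library held 36.4 CPM, below all WT SLAMF6+ libraries, and the log2 difference was -0.77 (SE 0.171). The annotated span of Slc39a6 overlaps that of Elp2, on the other strand, by 952 bases. Elp2 had 313 to 1219 counts per library. Of the 38-base stretches of Slc39a6, 0% also occur in another annotated gene.

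Slc39a10 (chr1:46807544-46892852, minus strand) encodes ZIP10, an importer known from lymphocyte survival. WT CXCR6+ replicates 1 to 5 held 4.70, 3.504, 2.17, 3.68 and 7.01 CPM, and WT SLAMF6+ replicates 1 to 5 held 6.31, 5.61, 5.47, 6.31 and 6.22 CPM. Replicate 5 of WT CXCR6+ lay above all WT SLAMF6+ libraries and the other CXCR6+ libraries below them, so the groups overlapped, and the log2 difference of -0.51 (SE 0.278) was not past the threshold. Without WT CXCR6+ replicate 5 it was -0.77 and past it. The DKO libraries held 6.92 and 10.1 CPM, which is inside the WT range in CXCR6+ and above it in SLAMF6+. Neither log2 difference from WT, 0.72 (SE 0.456) and 0.76 (SE 0.453), was past the threshold. The annotated span of Slc39a10 overlaps that of Gm28151, a non-coding gene on the same strand, by 951 bases. Gm28151 had 11 to 43 counts per WT CXCR6+ library, 1 to 11 per WT SLAMF6+ library, and 21 and 18 in the DKO libraries. Of the 38-base stretches of Slc39a10, 1.32% also occur in another annotated gene. With 19 to 63 and 40 to 66 counts in the WT groups and 60 and 70 in DKO, its values are uncertain.

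Slc39a14 (chr14:70303469-70351425, minus strand) encodes ZIP14, which carries zinc, manganese and iron, and it was the only 1 of the 8 past the threshold as higher in WT CXCR6+. It stood at 21.9, 22.8, 26.0, 25.9 and 28.2 CPM in WT CXCR6+ replicates 1 to 5, and at 15.5, 13.9, 14.1, 9.61 and 16.9 CPM in WT SLAMF6+ replicates 1 to 5. The groups did not overlap (25.0 ± 2.57 against 14.0 ± 2.73 CPM, log2 0.84, SE 0.150). The DKO CXCR6+ library held 4.38 CPM (38 counts) and the DKO SLAMF6+ library 6.50 CPM (45 counts), both below every WT library. DKO was lower by 5.69-fold in CXCR6+ (log2 -2.51, SE 0.318) and by 2.15-fold in SLAMF6+ (log2 -1.10, SE 0.289). The difference between these effects, the interaction of genotype and subset, was -1.40 on the log2 scale (SE 0.387). It was the only interaction among the 8 genes past the threshold and lost its call under 12 alternatives.

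**Figure D3:**
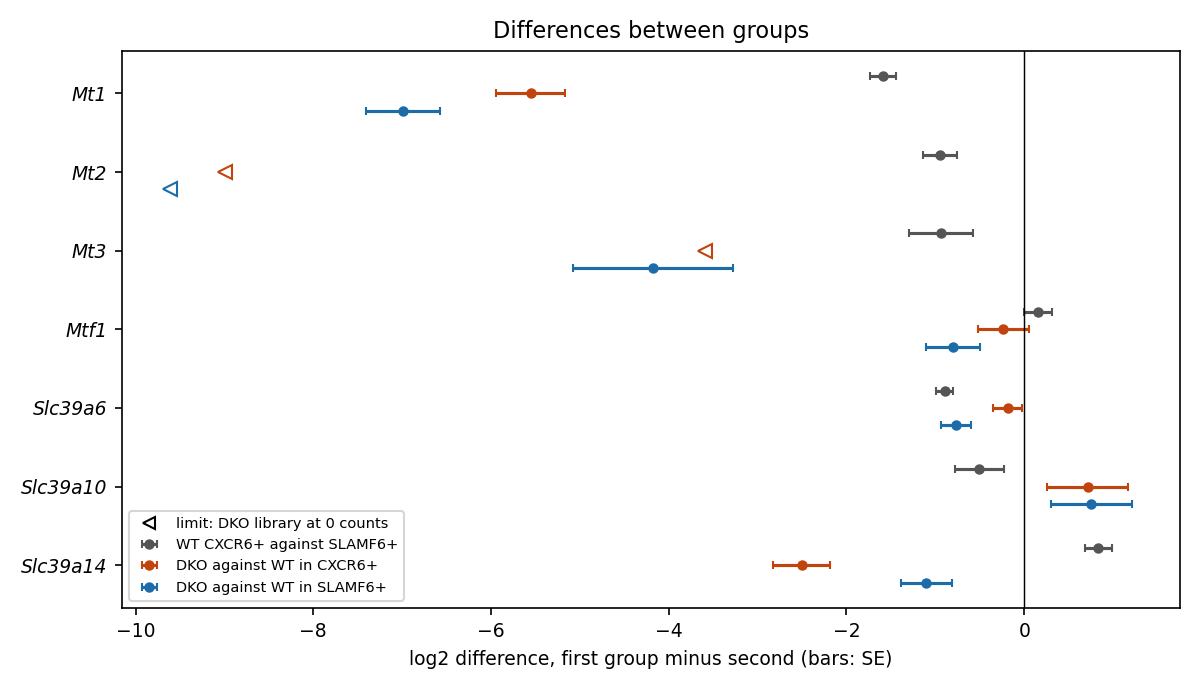
Log2 differences (x axis, points, with SE as bars) of the 7 genes that entered the fit, for WT CXCR6+ minus SLAMF6+ and for DKO minus WT in each subset; open triangles are limits where the DKO library held 0 counts. Mt1, Mt2 and Mt3 are left of 0 in all comparisons, with Mt1 at -1.59 in WT and at -5.56 and -6.99 in DKO, and Slc39a14 is right of 0 in WT (0.84) and left of it in DKO.

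Counted over the 7 genes in the fit, 4 were past the threshold between the WT subsets, 1 of them higher (Slc39a14) and 3 lower in CXCR6+ (Mt1, Mt2 and Slc39a6), where 33.3% of all tested genes were past it, 15.6% as higher and 17.7% as lower. The threshold is an adjusted p of 0.05 in edgeR's quasi-likelihood test. In DKO CXCR6+, 4 of 7 were past it, all lower (Mt1, Mt2, Mt3 and Slc39a14), where 28.7% of tested genes were past it in either direction and 15.9% as lower. In DKO SLAMF6+, 5 of 7 were lower, the same 4 genes and Slc39a6, where 31.1% were past it in either direction and 17.5% as lower. For the interaction it was 1 of 7, on the negative side, where 10.3% of tested genes were past it and 3.94% on that side. Groups did not overlap for 4 of 7 genes in WT (27.8% of all tested genes), 5 of 7 in DKO CXCR6+ (57.7%) and 7 of 7 in DKO SLAMF6+ (66.0%). Since the genes were chosen on these comparisons, nothing is read from these counts. The comparisons of DKO with WT and of the WT subsets share the WT libraries.

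Per length of transcript (CPM per kb of the median annotated coding transcript), the order in WT SLAMF6+ was led by Mt1 at 1598 ± 169 and Mt2 at 756 ± 46.4. Mt3 (16.9 ± 2.23) and Slc39a6 (16.0 ± 0.893) came next and did not differ beyond their spread. Below them were Slc39a14 at 6.66 ± 1.301, Mtf1 at 1.53 ± 0.170, Slc39a10 at 1.09 ± 0.0745 and Slc30a1 at 0.0481 ± 0.0332 CPM per kb. In WT CXCR6+, Mt1 (532 ± 117) and Mt2 (391 ± 121) had means that overlapped within their SDs, but per length Mt1 was above Mt2 in each of the 5 libraries, by 1.2-fold to 1.63-fold. The order there went on with Slc39a14 (11.9 ± 1.22), Mt3 (8.80 ± 4.43) and Slc39a6 (8.58 ± 1.18), where neighbouring means overlapped within their SDs. In the DKO libraries Mt1 was still first, at 11.3 CPM per kb in CXCR6+ and 12.6 in SLAMF6+, but Slc39a6 followed closely at 7.55 and 9.38.

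Genes with the most similar pattern to Mt1 were sought among 5048 genes of at least 20 CPM on average, by Pearson's r of log2 CPM. The points fall into the sort and genotype groups, so these r describe the order of groups more than variation within them. Over the 12 libraries the 5 most alike were Hilpda (r = 0.998), Pgam1 (0.997), Egln3 (0.997), Pgk1 (0.996) and Sdc4 (0.995). Hilpda, a lipid droplet gene, had means of 170 and 345 CPM in the WT CXCR6+ and SLAMF6+ groups and stood at 23.5 and 23.7 CPM in the DKO libraries, and the glycolytic gene Pgk1 likewise had 979, 1980, 158 and 174 CPM. Over the 10 WT libraries alone they were Wdr1 (0.996), Tcf25 (0.995), Hilpda (0.994), Yif1b (0.993) and Ccnd3 (0.991). Of these, Ccnd3, a cyclin gene, was at 831 and 620 CPM in the DKO libraries, above its WT means of 307 and 481 CPM. Mt2 had r = 0.982 with Mt1 over 12 libraries and 0.951 over 10, Mt3 0.924 and 0.608, and Slc39a6 0.631 and 0.953. The r of Slc39a14 with Mt1 was 0.645 over 12 libraries and -0.82 over the 10 of WT. For Slc30a1, too few counts remained for such a measure.

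The other zinc transporter genes are given with adjusted p-values, since they were not among the 8. All gene lists were nonetheless chosen with earlier results of these libraries known, so these p-values are not independent support. In the lists after the transporters, up to 4 genes each were named by the smallest p in these same comparisons. In the ZnT family, 7 of 11 genes entered the fit, and in the ZIP family 10 of 14 did besides Slc39a6, Slc39a10 and Slc39a14. Between the WT subsets, 2 ZnT genes and 1 ZIP gene were higher in CXCR6+ and none lower, where 15.6% of all tested genes were higher and 17.7% lower. In DKO CXCR6+, 3 of 7 ZnT and 3 of 10 ZIP genes were lower than in WT and none higher, where 15.9% of all tested genes were lower. In DKO SLAMF6+, 3 ZnT and 4 ZIP genes were lower and 1 of each higher, where 17.5% of all tested genes were lower and 31.1% passed in either direction. The median log2 difference in DKO CXCR6+ was -0.62 over the 7 ZnT genes and -0.19 over all 13 ZIP genes tested, against -0.22 over all genes. In DKO SLAMF6+ the medians were -0.55 and -0.45, against -0.05 over all genes.

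Slc39a8, which encodes ZIP8, an importer close in sequence to ZIP14, had the largest called differences among those of at least 5 CPM. It stood at 11.3, 8.32, 19.0, 16.7 and 17.6 CPM in WT CXCR6+ replicates 1 to 5, at 19.9, 16.5, 16.2, 19.2 and 24.6 CPM in WT SLAMF6+ replicates 1 to 5, and at 0.923 and 1.3 CPM in the DKO libraries. DKO was lower by 15.8-fold in CXCR6+ (log2 -3.96, SE 0.563, adjusted p 0.000303) and by 14.8-fold in SLAMF6+ (log2 -3.88, SE 0.555, adjusted p 0.000327; both from edgeR's quasi-likelihood fit). The WT subsets overlapped. Slc30a5, for the exporter ZnT5 of the secretory pathway, had opposite DKO differences in the subsets. In WT its mean was 19.5 ± 3.25 CPM in CXCR6+ and 9.40 ± 1.46 CPM in SLAMF6+, a log2 difference of 1.05 (edgeR adjusted p 0.000309). In DKO it was lower in CXCR6+ (7.96 CPM, log2 -1.29, adjusted p 0.00595) and higher in SLAMF6+ (17.8 CPM, log2 0.92, adjusted p 0.0153), with an interaction of -2.21 (adjusted p 0.00579) in the same edgeR fit.

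Slc39a1, for ZIP1 of the plasma membrane, fell in both DKO libraries (log2 -0.81 and -0.92, edgeR adjusted p 0.00679 and 0.00335), as did Slc30a9 (log2 -0.80 and -0.79, edgeR adjusted p 0.0141 and 0.0166). Slc39a13, for ZIP13 of the Golgi, was higher in WT CXCR6+ than in SLAMF6+ (33.6 ± 7.34 against 19.5 ± 6.23 CPM, edgeR adjusted p 0.0243) and fell in DKO CXCR6+ to 8.54 CPM (adjusted p 0.00902). The WT call ended without WT CXCR6+ replicate 4 (adjusted p 0.0571) or without WT SLAMF6+ replicate 1 (0.0584), with a range of 0.66 to 0.70 for the log2 difference in those fits. It also ended with the mt-Ts1 term (log2 0.62, edgeR adjusted p 0.143). In DKO SLAMF6+ alone, Slc30a7, Slc39a4 and Slc39a7 passed as lower and Slc39a9 as higher (log2 -0.93, -1.30, -0.45 and 1.06; edgeR adjusted p 0.0105, 0.0175, 0.0463 and 0.00541). The Slc39a7 call ended when any of WT CXCR6+ replicates 1, 2 and 5 or WT SLAMF6+ replicates 1, 3, 4 and 5 was left out (adjusted p 0.0513 to 0.0764). Slc30a6, Slc39a3 and Slc39a11 passed in none of these comparisons, with log2 differences between -0.49 (Slc30a6) and 0.89 (Slc39a3).

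**Figure D4:**
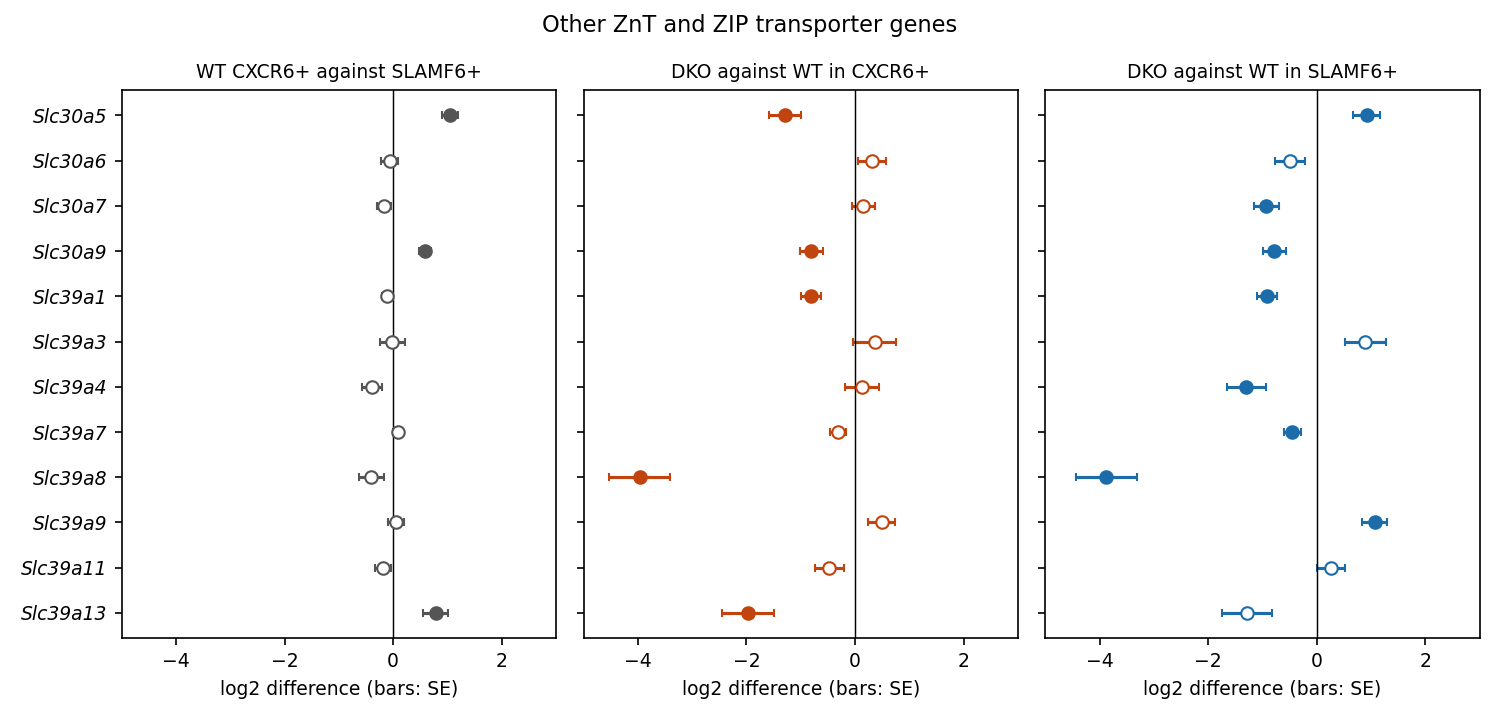
Log2 differences (x axis, points, with SE as bars) of the 12 ZnT and ZIP genes of at least 5 CPM outside the 8 genes, in the WT comparison and in DKO minus WT for each subset; filled points passed the edgeR test at an adjusted p of 0.05. Slc39a8 lies at -3.96 and -3.88 in the DKO panels, and Slc30a5 lies on opposite sides of 0 in them.

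Of the 4 genes linked to MTF1 in the literature that were outside the 8 and entered the fit, 2 fell and 2 rose in DKO CXCR6+, and 2 fell and 1 rose in DKO SLAMF6+, where 28.7% and 31.1% of all tested genes passed in either direction. Ndrg1, a stress-responsive gene, went the way of Mt1, from 68.4 ± 10.8 and 131 ± 11.7 CPM in WT CXCR6+ and SLAMF6+ to 12.6 and 9.10 CPM in DKO (log2 -2.44 and -3.85, edgeR adjusted p 1.87e-05 and 1.89e-06). Slc30a2, for the vesicular exporter ZnT2, went from 1.67 ± 0.957 and 1.4 ± 0.498 CPM to 0 counts in both DKO libraries. It is also counted among the ZnT genes above, and limma-voom ended both of its calls (fitted log2 -4.74 and -4.22). Gclc, the catalytic subunit of glutathione synthesis, rose from 2.99 ± 0.279 to 8.08 CPM in CXCR6+ and from 1.70 ± 0.426 to 9.83 CPM in SLAMF6+ (edgeR adjusted p 0.0121 and 0.000252). Selenow, a selenoprotein gene, rose in DKO CXCR6+ (100.8 ± 9.21 to 224 CPM, log2 1.15, edgeR adjusted p 1.15e-05) and did not pass in SLAMF6+ (232 ± 5.37 against 282 CPM).

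Glucocorticoid-induced genes were listed because glucocorticoids also induce metallothionein genes. Of 8 tested, 4 rose and 2 fell in DKO CXCR6+, and 4 rose and 3 fell in DKO SLAMF6+, where 28.7% and 31.1% of all tested genes passed. The median log2 differences were 0.75 and 0.35, against -0.22 and -0.05 over all genes. Tsc22d3, which encodes the glucocorticoid-induced leucine zipper protein, rose from 24.9 ± 2.92 to 286 CPM in CXCR6+ and from 51.0 ± 2.56 to 233 CPM in SLAMF6+ (log2 3.52 and 2.19, edgeR adjusted p 3.04e-08 and 6.12e-07). Fkbp5, Sgk1 and Il7r rose in both subsets too (log2 1.22 to 4.57, edgeR adjusted p 1.79e-05 to 0.000933). These 4 genes were named for the smallest p of the list, and the genes that fell are not among them.

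Among copper and iron handling genes, changes were mixed. Of 9 tested copper genes, 6 were lower in WT CXCR6+ than in SLAMF6+ (17.7% of all tested genes). In DKO, 2 rose and 1 fell in CXCR6+ while 2 rose and 5 fell in SLAMF6+, where 28.7% and 31.1% of all tested genes passed in either direction. Atox1, the copper chaperone gene, rose in both DKO libraries (log2 1.72 and 0.50, edgeR adjusted p 2.92e-06 and 0.0168), and Slc31a1, for the copper importer CTR1, fell in SLAMF6+ from 18.7 ± 1.62 to 2.75 CPM (adjusted p 2.94e-05). Of 9 tested iron genes, 1 rose and 2 fell in DKO CXCR6+, and 2 rose and 2 fell in SLAMF6+, and the share in CXCR6+ was near that over all genes. Tfrc, for the transferrin receptor, fell from 106 ± 13.2 to 6.12 CPM in CXCR6+ and from 134 ± 13.3 to 3.18 CPM in SLAMF6+ (edgeR adjusted p 6.82e-07 and 2.57e-07). Slc25a37, for the mitochondrial iron carrier mitoferrin and abundant in red cell precursors, rose in the DKO SLAMF6+ library, which held 11.9% haemoglobin counts (6.91 ± 0.775 to 46.7 CPM, edgeR adjusted p 1.33e-06). In DKO CXCR6+ it stood at 13.4 CPM, inside the WT range, and the interaction passed (-2.79, edgeR adjusted p 0.00116). Of 10 tested NRF2 targets, a list of oxidative stress genes, 2 rose and 1 fell in each DKO library, Gclc among those that rose, which is a share near that over all genes.

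The genes around the metallothionein cluster were examined because all 3 metallothionein genes in the deposited table were low in DKO. This choice was made after their values were seen. Mt4, also a metallothionein gene of this cluster, was not in that table. Within 500 kb of the start of Mt1, 11 other protein-coding genes were tested. In DKO CXCR6+ 2 rose and 1 fell, and in DKO SLAMF6+ 3 rose and 2 fell, where 28.7% and 31.1% of all tested genes passed in either direction. The nearest of them, Nup93, a nuclear pore gene 35.5 kb away, fell in both (log2 -1.26 and -1.24, edgeR adjusted p 0.000538 and 0.000585), from 29.9 ± 2.69 and 36.2 ± 4.12 to 12.5 and 15.3 CPM. Nlrc5, a regulator of MHC class I genes 255 kb away, rose (log2 1.44 and 2.04, edgeR adjusted p 0.000361 and 2.51e-05), and so did Arl2bp (log2 1.02 and 0.99, adjusted p 0.00715 and 0.00841). Herpud1 and Rspry1 differed by log2 -0.02 to 0.21 and did not pass. The lowest of the neighbours' differences with counts in both DKO libraries was -1.93 (Cpne2 in SLAMF6+, edgeR adjusted p 0.0839), against -6.99 for Mt1 in that subset. No test compared a neighbour with Mt1.

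**Figure D5:**
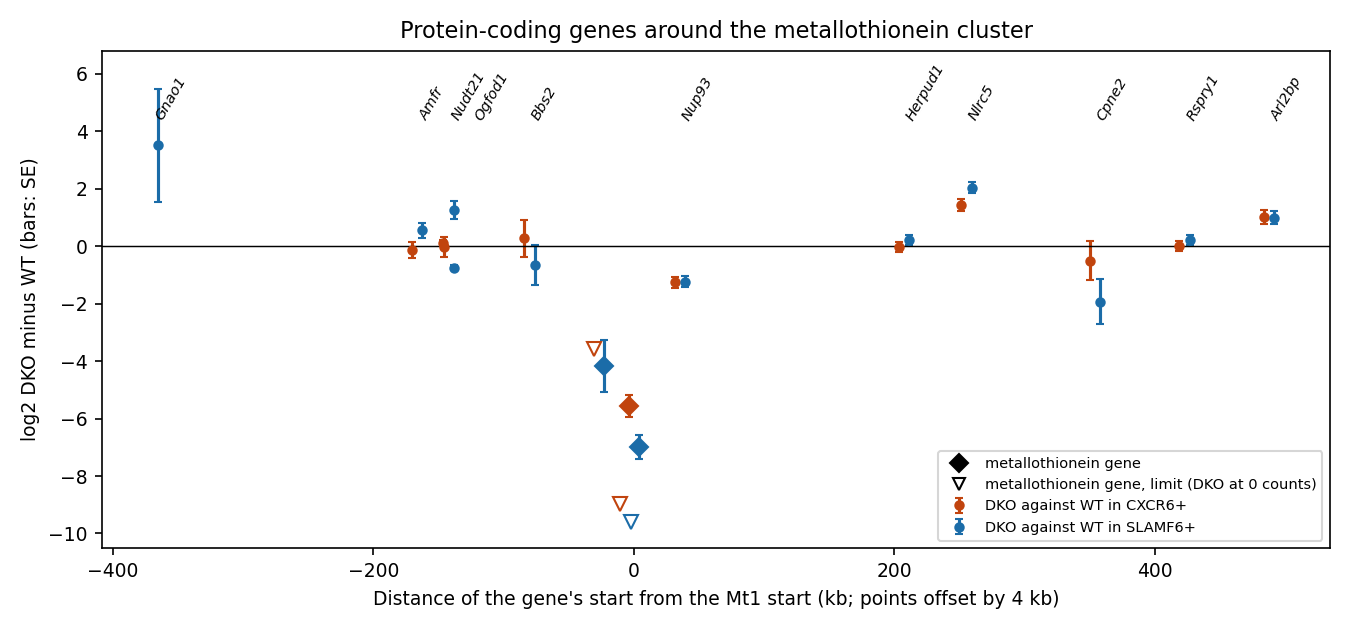
Log2 DKO minus WT (y axis, with SE as bars) of the metallothionein genes (diamonds, and open triangles for limits at 0 counts) and of other tested protein-coding genes within 500 kb (circles), by the distance of their starts from that of Mt1 (x axis, kb). Gnao1 in CXCR6+ is left out because its DKO library held 0 counts. Mt1 lies at -5.56 and -6.99 and Mt2 lower still, and the lowest neighbour, Cpne2 in SLAMF6+, lies at -1.93.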

How the data were processed

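RNA of 1000 sorted cells per library was made into full-length cDNA by a modified SMART-Seq2 protocol and sequenced as paired reads of 38 bases, per the labels' protocols. The authors deposited 1 table of expected counts by gene symbol, given as whole numbers. The submitters' processing notes name STAR 2.7.7a, RSEM 1.3.3 and the build mm10. Their annotation and their treatment of multiply mapping reads are not stated in the labels. The 8 genes and all gene lists were chosen with earlier results of these data known.

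All 12 libraries, in 4 groups, entered 1 edgeR fit (version 4.0.16, R 4.3.3): TMM scaling, filterByExpr (21565 of 47359 genes kept), quasi-likelihood test, Benjamini-Hochberg adjustment over all genes tested, threshold 0.05. The spread (common dispersion 0.396, 8 residual degrees of freedom) comes from the WT libraries, and each DKO library is assumed to vary like them. An SE is the log2 difference divided by the root of its F statistic. Ratios from few counts carry 95% exact intervals, and 0 counts are set to a floor of 3. Named genes were the 8, ZnT and ZIP genes of at least 5 CPM on average, up to 4 of each other list by the smallest p, and the 5 genes most like Mt1. Coordinates come from GENCODE M21 (GRCm38), matched by symbol. The steps were tested on simulated counts. Alternatives used DESeq2 1.42.0, limma-voom 3.58.1, other filters, library sizes and samples, a block on replicate number, and each WT library left out. A term for mt-Ts1 at 0 counts was added after seeing the data. The libraries at 0 were WT CXCR6+ replicate 1 and WT SLAMF6+ replicates 1, 3, 4 and 5, and no DKO library. The term is thus partly confounded with subset and genotype.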

Additional observations from a re-analysis of the deposited data

Results flagged for a closer look

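Mtf1 in WT SLAMF6+ replicate 2 stood at 13.9 CPM, far from the other 4 libraries of its group (10.9 to 11.5 CPM). This was 1 of 16 groups checked for such a library, and chance alone marks about 1 group in 20.

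The DKO difference from WT differed between the subsets, by the interaction term of the edgeR fit past an adjusted p of 0.05, for Slc39a14 among the 8 genes. Its log2 interaction (difference in CXCR6+ less that in SLAMF6+) was -1.40. Among the other zinc transporters the interaction was -2.21 for Slc30a5 and 1.09 for Slc30a7. Among genes linked to MTF1 it was 1.41 for Ndrg1 and 0.88 for Selenow. For copper handling genes the values were 2.12 for Slc31a1, 1.22 for Atox1, 1.10 for Sod1 and 0.80 for Cox17. Iron handling genes gave 1.22 for Fth1, 1.275 for Tfrc and -2.79 for Slc25a37. The remaining ones were 1.33 for Tsc22d3, 0.75 for Prdx1 and 0.77 for Txn1. In the whole fit, 10.3% of genes had such an interaction. Each rests on 1 DKO library per subset.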

How the results depend on the processing

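None of the results changed direction past the threshold under any alternative run, and each count of genes stayed within 1.5 times its value: 5131 to 8270 between the WT subsets (6324 to 6949 with 1 WT library left out), 4500 to 7052 in DKO CXCR6+ (5853 to 6204), 4642 to 7348 in DKO SLAMF6+ (6065 to 6885) and 1534 to 3259 for the interaction (1857 to 2347). The all-gene median moved by under 0.1 with other scalings. With limma-voom the split turned, from 2767 higher and 3432 lower to 4125 and 2433 in DKO CXCR6+, and from 2913 and 3784 to 4499 and 2772 in DKO SLAMF6+.

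Over the 8 genes, 492 values under an alternative kept their side of the threshold, 22 lost it and 17 gained it. For the other named genes these numbers were 2262, 75 and 34. limma-voom ended the DKO calls of Mt2 (log2 -11.52 and -12.2, fitted values with 0 counts in DKO) and Mt3 (-6.03 and -3.99) in both subsets and of Slc39a14 in SLAMF6+ (-1.07). The cause was not tested. The Slc39a14 interaction (-1.66 to -1.30) lost its call without any of WT CXCR6+ replicates 2 to 5 or WT SLAMF6+ replicates 1 to 3, with limma-voom, with no filter, with a block and with the mt-Ts1 term. The Mt1 interaction (1.43) gained one without WT CXCR6+ replicate 3 (1.33) or 5 (1.52), by DESeq2's Wald test (1.37), at 10 CPM in 5 libraries (1.19) and with the fixed block. That of Slc39a6 gained one without WT CXCR6+ replicate 4 (0.67). The 10 CPM filter removed Mt3 and Slc39a10. The interactions of Slc30a7, Prdx1 and Txn1 were lost under 9 or more alternatives each.

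Replicate numbers were shared by the WT subsets, and no pairing of the libraries by number was detected. Deviations of same-numbered libraries correlated at -0.0117 to 0.029, and none of 5 pairs was over 0.1. Of 10 libraries, 4 correlated best with their own number. The check took all tested genes alike, low counts included, so pairing is not excluded. With the replicate block, 6944 genes passed between the WT subsets (7986 as a random block) and 1557 for the interaction (2268). Under the fixed block Mt3 passed in WT (-1.09) and Slc39a13 did not (0.81, edgeR adjusted p 0.0542). DKO against WT could not be fitted with it, since the DKO libraries share no number with WT. Depth limits Slc30a1, at 0 to 9 counts, most.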
